A study of Homo sapiens with 6 samples.

Results

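Acetylation of histone lysines (Kac) is laid down by acetyltransferases and removed by deacetylases, and it marks active promoters and enhancers. Benzoylation (Kbz) puts a benzoyl group from benzoyl-CoA on the same kind of residue, and sodium benzoate (SB) feeds the pool of that donor. A lysine side chain can carry only one acyl group at a time, but a ChIP-seq peak spans many nucleosomes in many cells, so both marks can be called over the same stretch of DNA.

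Here 309 regions are described in which Kac was called in untreated cells, no Kac peak was called after SB, and Kbz was called after SB. They were found among the 70326 control Kac peaks on chromosomes 1 to 22 and X, as peaks that shared at least 1 bp with an SB Kbz peak and 0 bp with any SB Kac peak. The members were thus selected on the measured peak calls themselves, so the presence of Kbz and the absence of SB Kac in them are no finding. Of all control Kac peaks, 35.3% had no SB Kac peak and 30.3% touched Kbz. Of the 21303 that touched Kbz, only the 309 had no SB Kac peak, which is 1.45%.

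The cells were labelled HepG2, a line from a human liver tumour, and were either untreated or given 10 mM SB for 24 h. Antibodies against any acetylated or any benzoylated lysine were used, which do not tell the histone or the residue. The series held 6 libraries, 1 per group (input, Kac and Kbz, with and without SB), and 3 peak lists were used: control Kac (70326 peaks), SB Kac (63282) and SB Kbz (24308). According to the labels no Kbz peak was called in control cells, and the input libraries were not analysed here. With 1 library per group no difference could be set against replicate error, and no test was made. Wilson 95% intervals cover counting error only. Peak lists carry no read totals, so depth was unknown.

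The cell label was compared with marker genes. Of 20 liver markers, 11 had a control Kac peak within 3 kb of a transcription start site (TSS), and AFP, ALB, APOB, FGA, FGB, FGG, FOXA2, NR1H4 and SERPINA1 had none. Of 11 markers of embryonic kidney cells, 10 had one, OSR1 being the exception. Over all coding genes, 15331 of 19970 had one, so the kidney count does not set these markers apart from other coding genes. The missing liver calls go against the label at the genes of the main liver plasma proteins. The cells are thus called here only as the label names them. Of 10 neuron markers 4 had control Kac, and of 10 blood markers 3. None of the markers of the 4 lists had a member at its promoter. Over all genes with control Kac the share with a member was 0.459%, so lists of this size hold few members or none.

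To show the DNA concerned, 150 bp from the middle of the bases shared by Kac and Kbz are given for 6 of the members with the highest control Kac fold (hg38, plus strand, CpG dinucleotides in capitals). They are a region inside TMC3 near the lncRNA gene ENSG00000273920 (chr15:81338513-81338662), an intronic region whose nearest coding gene is B3GNT2 (chr2:62309778-62309927), a region by the pseudogene CEACAMP1 (chr19:42635251-42635400), the lncRNA gene ENSG00000263508 (chr17:10845005-10845154), an intergenic region with PPP1CC as the nearest coding gene (chr12:110762894-110763043) and an intergenic region with MAOA as the nearest (chrX:43557605-43557754).
ENSG00000273920: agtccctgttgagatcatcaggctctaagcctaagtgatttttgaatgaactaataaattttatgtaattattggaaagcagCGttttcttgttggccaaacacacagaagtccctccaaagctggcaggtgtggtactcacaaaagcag
B3GNT2: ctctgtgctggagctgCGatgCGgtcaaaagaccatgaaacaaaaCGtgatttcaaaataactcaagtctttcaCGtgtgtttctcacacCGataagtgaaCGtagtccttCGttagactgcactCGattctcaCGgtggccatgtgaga
CEACAMP1: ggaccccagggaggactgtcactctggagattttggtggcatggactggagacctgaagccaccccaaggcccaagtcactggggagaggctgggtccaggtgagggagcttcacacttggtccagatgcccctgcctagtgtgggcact
ENSG00000263508: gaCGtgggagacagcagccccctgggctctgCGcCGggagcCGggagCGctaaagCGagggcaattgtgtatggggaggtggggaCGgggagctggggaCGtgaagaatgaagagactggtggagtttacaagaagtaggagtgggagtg
PPP1CC: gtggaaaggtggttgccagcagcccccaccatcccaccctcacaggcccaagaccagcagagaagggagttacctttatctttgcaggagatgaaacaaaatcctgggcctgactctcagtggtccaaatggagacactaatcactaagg
MAOA: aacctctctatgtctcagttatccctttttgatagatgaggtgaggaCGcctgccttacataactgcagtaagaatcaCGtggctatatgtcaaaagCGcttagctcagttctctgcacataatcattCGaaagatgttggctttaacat

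The stretches by CEACAMP1 and PPP1CC hold 0 CpG, that inside TMC3 holds 1 and that by MAOA holds 4, while the one by B3GNT2 holds 9 and that of ENSG00000263508 holds 8. For contrast, 100 bp upstream of the canonical TSS are given for 3 of the few members that covered the start of a coding gene, in the direction of transcription: the zinc finger genes ZSCAN18 (chr19:58098232-58098331, minus strand) and ZNF441 (chr19:11766900-11766999, plus strand), and EDF1 (chr9:136866309-136866408, minus strand), which encodes a coactivator of transcription.
ZSCAN18: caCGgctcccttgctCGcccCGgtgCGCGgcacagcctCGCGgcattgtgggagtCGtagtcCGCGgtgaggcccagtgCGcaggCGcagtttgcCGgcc
ZNF441: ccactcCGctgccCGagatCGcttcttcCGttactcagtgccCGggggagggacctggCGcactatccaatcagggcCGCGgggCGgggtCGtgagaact
EDF1: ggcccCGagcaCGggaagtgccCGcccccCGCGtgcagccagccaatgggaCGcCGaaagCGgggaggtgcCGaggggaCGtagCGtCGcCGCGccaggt

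These starts hold 13, 10 and 14 CpG in 100 bp and are 73%, 67% and 76% G or C. The same stretch at FANCF, which is not printed, holds fewer, with 8 CpG and 52% G or C. Upstream stretches were placed by the TSS, not by the bases shared with Kbz, so both kinds of stretch differ in that too.

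Regarding strength, members were modest in the Kac list and weak in the Kbz list. The fold given by the peak caller, a ratio of reads in the peak to the background, had a median of 2.99 in control Kac, from 2.13 to 5.15. This put the median member at percentile 43.2 of the control Kac list, against 82.5 for control Kac peaks with both Kbz and SB Kac, 28.2 for those with neither and 45.0 for those with SB Kac but no Kbz. The Kbz peaks over members had a median fold of 3.08, which is percentile 18.8 of the Kbz list. Of the 309 members, 166 stood below the middle of both lists and 13 above the middle of both. A further 120 stood above the middle in Kac and below it in Kbz, and 10 the other way round. No member had a Kbz peak in the top 10% of the Kbz list by fold, and 4 were in the top 10% of the Kac list.

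**Figure D1:**
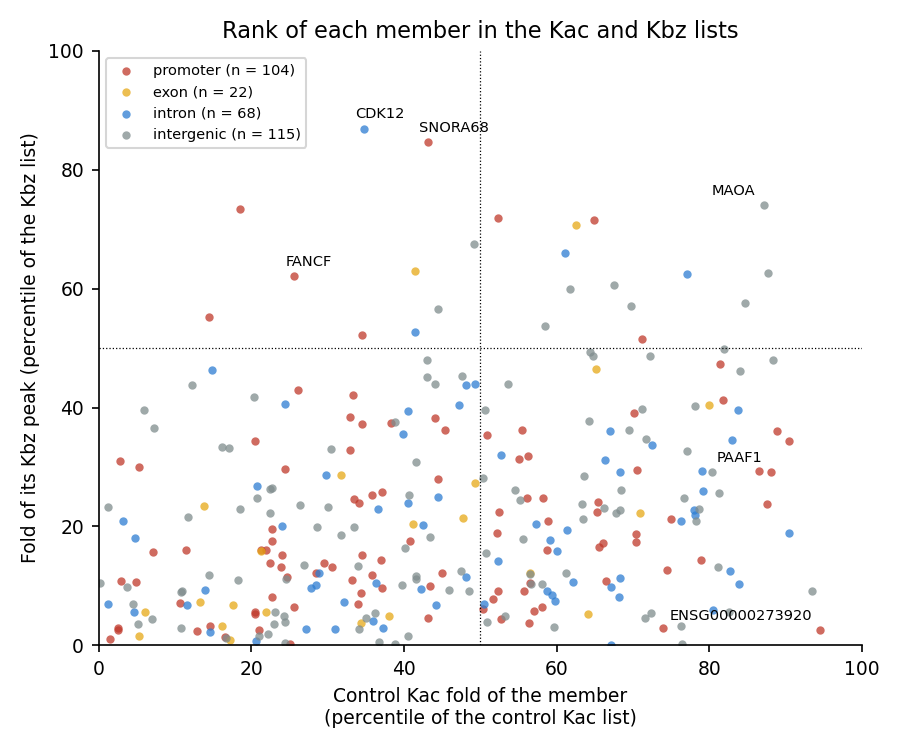
Each point is 1 of the 309 members, placed by the percentile of its fold in the control Kac list (x axis) and of its Kbz peak in the Kbz list (y axis), and coloured by position. The dotted lines mark the middle of each list; 166 members lie in the lower left part and 13 in the upper right, among them the region by MAOA.

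The strongest member in control Kac lay inside TMC3 and its antisense gene, 1589 bp from the start of ENSG00000273920 (chr15:81337166-81340223). Its Kac fold was 5.15 (percentile 94.5), its length 3058 bp, and its Kbz peak of 514 bp stood at percentile 2.57 of the Kbz list. The nearest SB Kac peak was 11754 bp away. The region with MSC as its nearest coding gene came next, with a Kac fold of 5.01 and Kbz at percentile 9.17. The intronic region with B3GNT2, an enzyme that extends lactosamine chains, as the nearest coding gene had a Kac fold of 4.71 and Kbz at percentile 18.9. The member by CEACAMP1 also had a Kac fold of 4.71, with Kbz at percentile 34.3, and no SB Kac peak was called within 111701 bp of it. Thus the members with the highest Kac were not those with the highest Kbz.

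The other members among the first 10 by Kac were ENSG00000263508 (fold 4.58, Kbz at percentile 36.0), the region with PPP1CC, a catalytic subunit of protein phosphatase 1, as the nearest coding gene (4.54 and 48.0), PAAF1, a regulator of proteasome assembly (4.53 and 29.1), the region nearest CCDC91 (4.50 and 62.6) and the pseudogene CYP2G2P (4.49 and 23.8). Their lengths ran from 395 to 713 bp. The region by PPP1CC was covered by Kbz over its whole length of 419 bp, and that by PAAF1 over 91.3% of 446 bp. The nearest SB Kac peak was 15995 bp from the former and 281054 bp from the region by CCDC91. These members were thus short and far from Kac called after SB.

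The region 97028 bp from MAOA, which encodes a monoamine oxidase, was the exception, being among the first 10 in both orders. It spanned 1570 bp (chrX:43556310-43557879), had a Kac fold of 4.46 (percentile 87.2) and a Kbz fold of 4.92 (percentile 74.0), and the Kbz peak covered 398 bp of it. No SB Kac peak was called within 46254 bp. In 5 members both peaks reached a −log10 q of at least 5: this region and those nearest KCNK1, CCDC91, CACNA1A and NDUFA10. None of the 5 was at a promoter.

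The Kbz peaks that ranked highest reached members from outside. In the intron of CDK12, which encodes a kinase of transcription elongation, a Kbz peak of 5399 bp at percentile 86.9 shared 71 bp with a Kac peak of 502 bp (chr17:39465586-39466087), and the same Kbz peak also lay under SB Kac. By the small nucleolar RNA gene SNORA68 a Kbz peak of 6445 bp (percentile 84.6) covered the whole member of 1136 bp (chr19:17864513-17865648), and an SB Kac peak lay 698 bp away. Of the 10 members with the highest Kbz fold, 3 had such a Kbz peak that also touched SB Kac, against 0 of the 10 with the highest Kac fold. Over all members it was 16 of 309. The third was ENSG00000279775 (chr17:40597750-40599531), with Kbz at percentile 73.4 over 432 bp and SB Kac 1086 bp away.

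In the other members high in Kbz no SB Kac lay under the same Kbz peak. At COL20A1, a collagen gene (chr20:63326627-63327351), Kbz at percentile 71.8 covered 98.3% of the member, whose Kac fold was 3.16. At the lncRNA gene LINC01182 (chr4:13653874-13654781) Kbz at percentile 71.5 covered 39.5%, and the Kac fold was 3.47. The members nearest EPPK1, CCDC25, FAM167A and KLHL29 had Kbz at percentiles 70.8, 67.5, 66.0 and 63.0. Those by EPPK1, FAM167A and KLHL29 lay between 1583 and 2070 bp from SB Kac, and that by CCDC25 lay 36912 bp from it.

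**Figure D2:**
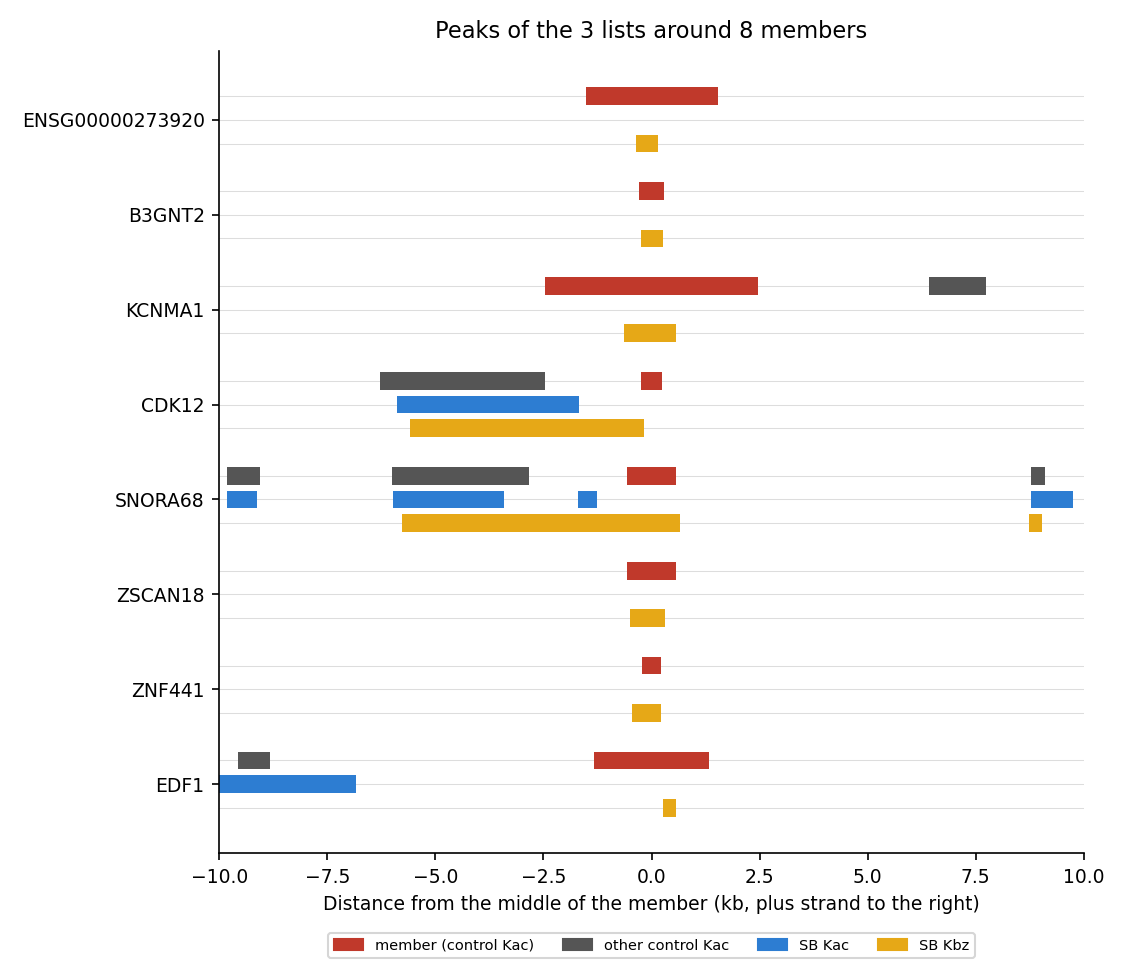
Peaks of control Kac (red for the member, grey for others), SB Kac (blue) and SB Kbz (yellow) around 8 members, each in 3 rows, by distance in kb from the middle of the member, with the plus strand to the right. At CDK12 and SNORA68 a long Kbz peak runs from an SB Kac peak into the member, whereas at ZSCAN18, ZNF441 and B3GNT2 no SB Kac peak lies within 10 kb.

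Members were short, with a median of 795 bp (280 to 4941), against 2485 bp for peaks with Kbz and SB Kac and 722 bp for those with neither. The longest was at KCNMA1 (chr10:77348389-77353329), which encodes a calcium-activated potassium channel: 4941 bp, of which Kbz covered 1205 bp. The lncRNA gene ENSG00000226527 (chr21:33121454-33125720) followed with 4267 bp, of which Kbz covered 1326 bp. The intergenic members with BTBD3 and NEO1 as the nearest coding genes were 3585 and 3158 bp long, and Kbz covered 32.3% and 12.3% of them. The long members thus had Kbz over a minor part of their length. Kbz shared a median of 368 bp with a member (7 to 1444), or 59.5% of its length. In 104 members the Kbz peak lay inside the Kac peak, in 25 the Kac peak lay inside the Kbz peak, and in 180 the edges crossed. Kbz covered at least 50% of the member in 178.

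Close to the edge of the rule, the member with the least Kbz shared 7 bp with it (chr19:45821762-45822795). The member nearest to SB Kac was 10 bp from it, in an exon inside SLC28A1 (chr15:84945518-84947284). The nearest start of a coding gene was that of PDE8A, 33156 bp away. Just outside, a control Kac peak shared 8 bp with SB Kac (chr14:105494397-105495399) and another with no SB Kac peak was 7 bp from Kbz (chrX:116970884-116971267). Of the 20994 peaks with Kbz and SB Kac, 43 shared at most 200 bp with SB Kac.

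The distance to SB Kac was next measured. The nearest SB Kac peak was at a median of 8695 bp from a member, from 10 to 678386 bp. It was within 1 kb in 22 members (7.12%, 4.75 to 10.5), within 10 kb in 168 (54.4%, 48.8 to 59.8) and within 50 kb in 263 (85.1%, 80.7 to 88.7). Of the 22 within 1 kb, 13 had a Kbz peak that also touched SB Kac. In control Kac peaks with neither mark after SB, the shares were 6.53% (6.23 to 6.85), 61.4% (60.8 to 62.0) and 90.01% (89.6 to 90.4). The shares of members within 10 kb and within 50 kb of SB Kac were thus lower, with intervals that do not overlap, while those within 1 kb overlap. Members at promoters lay closer to SB Kac, at a median of 4954 bp, than the others, at 9996 bp. In 147 members a control Kac peak that was also called after SB lay within 10 kb.

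**Figure D3:**
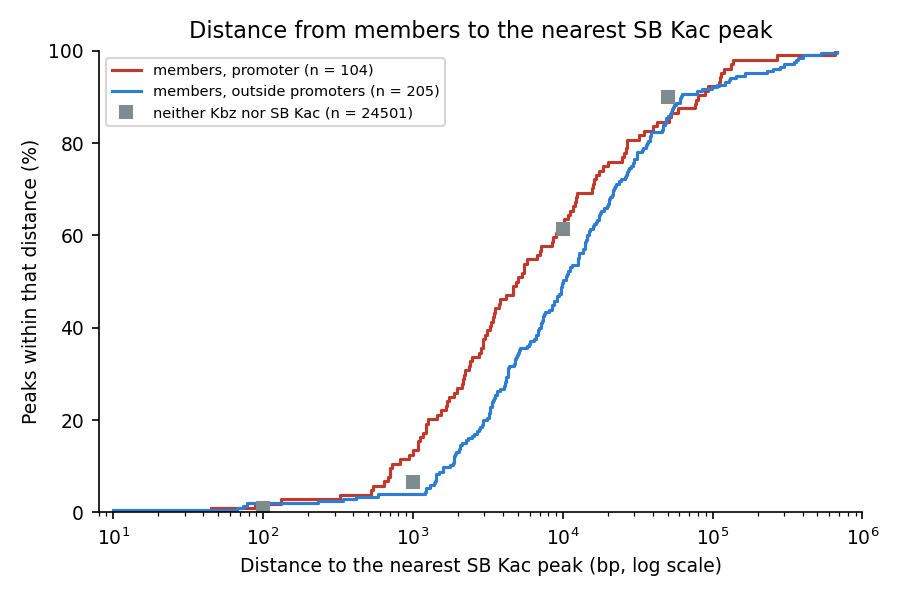
Share of members (%, y axis) with an SB Kac peak within a given distance in bp (x axis, log scale), for the 104 members at promoters (red) and the 205 others (blue). Grey squares give 24501 control Kac peaks with neither Kbz nor SB Kac, 61.4% of which had SB Kac within 10 kb.

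Concerning position in the genome, 104 members (33.7%, 28.6 to 39.1) were at a promoter, taken as 3 kb on either side of the TSS of any transcript. Exons held 22 (7.12%), introns 68 (22.01%, 17.7 to 27.0) and intergenic sequence 115 (37.2%, 32.0 to 42.7). Peaks with Kbz and SB Kac were at promoters in 69.8% (69.2 to 70.4), peaks with neither in 26.1% (25.5 to 26.6), and peaks with SB Kac but no Kbz in 33.5% (32.9 to 34.0). The promoter share of members thus lay between the first and the second of these sets and close to the third, which had no Kbz. Their intergenic share was above that of all 3 (14.4%, 30.5% and 23.4%). The canonical TSS of a coding gene was covered by 7 members (2.27%, 1.10 to 4.60), against 43.9% of peaks with Kbz and SB Kac, 0.951% of peaks with neither and 3.67% of peaks with SB Kac only. Peaks with Kbz and SB Kac were also longer, with a median of 2485 bp against 795 bp for members. A longer peak covers a TSS more easily, and the part of length was not tested. Outside promoters, 156 of 205 members were over 10 kb from the start of any coding gene, a share not computed for the other sets. Over all members the median distance to such a start was 18475 bp. It was 19235 bp for peaks with neither, 13630 bp for peaks with SB Kac only and 0 bp for peaks with Kbz and SB Kac.

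**Figure D4:**
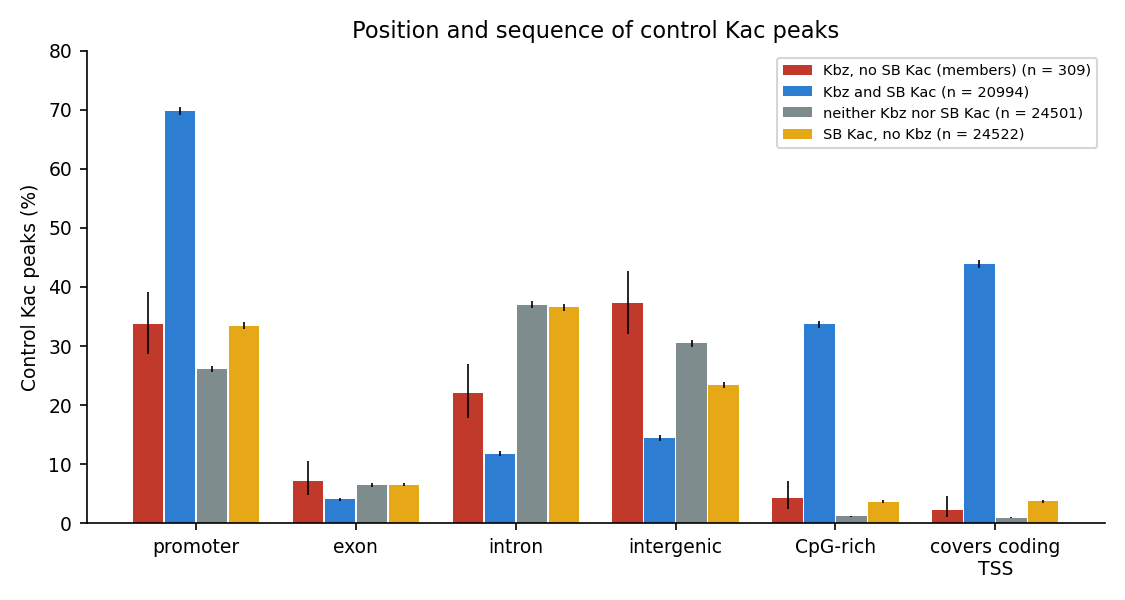
Share (%) of control Kac peaks at each position, with CpG-rich sequence, or covering the canonical TSS of a coding gene, in 4 sets, with Wilson 95% intervals as bars. Members (red) are at promoters in 33.7%, against 69.8% of peaks with Kbz and SB Kac (blue).

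Since strong Kac peaks tend to be at promoters, the shares were also compared within quintiles of control Kac fold. Among peaks with Kbz and SB Kac, the promoter share was 37.3%, 48.5%, 57.9%, 69.5% and 74.0% from the lowest to the highest quintile. Among members it was 30.6%, 43.2%, 34.1%, 23.1% and 32.0%, from 49, 88, 82, 65 and 25 members. In the lowest and the second quintile the intervals of both sets overlapped (19.5 to 44.5 against 31.8 to 43.1, and 33.3 to 53.6 against 44.6 to 52.4). In the 3 higher quintiles they did not: the upper limits for members were 44.9, 34.6 and 51.6, and the lower limits for the other set 55.8, 68.4 and 73.2. Peaks with neither mark stayed between 23.5% and 28.4% in all 5. Length was not matched within quintiles, and a longer peak overlaps a promoter window more easily. In the 3 higher quintiles the median length was 801.5, 583 and 534 bp for members. It was 1915, 2524 and 2647 bp for peaks with Kbz and SB Kac. The part of length was not tested.

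**Figure D5:**
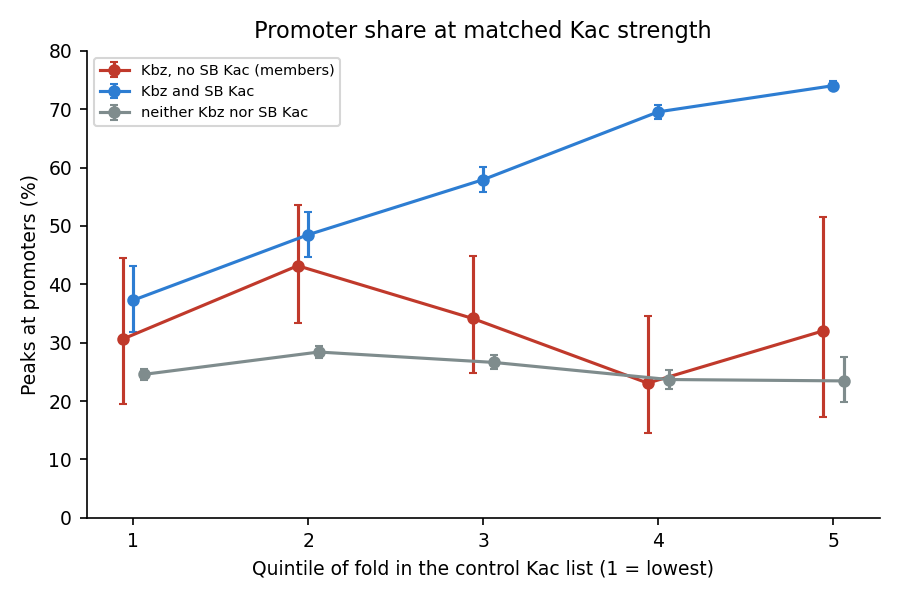
Share of peaks at promoters (%, y axis) by quintile of fold in the control Kac list (x axis, 1 is the lowest), with Wilson 95% intervals, for members (red), peaks with Kbz and SB Kac (blue) and peaks with neither (grey). The blue values go from 37.3% to 74.0%, and the members reach 43.2% at most.

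The base composition of members was examined next. In the 300 bp around the middle of the peak, members were 49.0% G or C by median, against 54.7% in peaks with Kbz and SB Kac and 46.7% in peaks with neither. CpG stood at 0.211 of the number that base composition gives, against 0.451 and 0.186. CpG-rich sequence, with a ratio of at least 0.6 and at least 50% G or C, was found in 13 members (4.21%, 2.47 to 7.06), against 33.7% and 1.14%, and 3.64% (3.41 to 3.88) of peaks with SB Kac but no Kbz. Also at promoters the difference remained, with 11 of 104 members (10.6%, 6.01 to 18.0) against 45.0% (44.2 to 45.8) of promoter peaks with Kbz and SB Kac. Among promoter peaks with neither mark the share was lower than in members, at 2.60% (2.24 to 3.02). Thus members at promoters were mostly outside the CpG-rich stretches. The promoters differed in kind between the sets. Of the members at promoters, 53 of 104 (50.96%, 41.5 to 60.4) were at a promoter of a coding gene. Among promoter peaks with Kbz and SB Kac it was 86.1% (85.6 to 86.7), and among those with neither 63.98% (62.8 to 65.1). The part of promoter type in the CpG-rich shares was not tested.

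Short motifs were counted on both strands of these 300 bp. The SP/KLF box GGGCGG was in 11.0% (7.98 to 14.98) of members, against 31.7% of peaks with Kbz and SB Kac, 6.52% of peaks with neither and 15.3% of all control Kac peaks. CCAAT, read by NF-Y, was in 39.5% (34.2 to 45.0) of members and 30.8% of all. The E-box CACGTG was in 8.41% (5.81 to 12.04) against 5.23%, AAGATGG, the core bound by YY1, in 9.39% (6.61 to 13.2) against 5.45%, and the AP-1 site TGANTCA in 10.0% (7.16 to 13.9) against 12.1%. In peaks with Kbz and SB Kac these 4 motifs were in 27.7%, 6.75%, 5.63% and 8.37%, in the same order. In peaks with neither they were in 33.5%, 4.29%, 5.73% and 14.5%. CCAAT was in 38.6% of Kbz peaks with no Kac peak, and the E-box in 8.89% of all Kbz peaks. Across 12 motifs no share among members exceeded 39.5%, so none was common to the members. A match is a description of the letters only.

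Because only uniquely mapped reads were kept, repeated sequence was measured. At least one 50 bp word found elsewhere in the reference was present in 39 members (12.6%, 9.37 to 16.8), against 8.77% (8.57 to 8.99) of all control Kac peaks. At least 50% of the words were repeated in 5 members (1.62%, 0.693 to 3.73), against 0.493% (0.444 to 0.548). The part of mapping in the calls at these members was not tested. In the bases under both marks, 19 members shared at least 20 words of 16 bp with another member, 15 of them in 1 family that included the members by CYP2G2P and EDF1. The member by CCDC91 was in a family of 2. None of the regions whose shared bases are printed above was in a family, so those examples do not show such sequence.

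At genes, 126 had a member at a promoter, 58 of them protein-coding and 46 lncRNA. This is 0.459% of the 27476 genes that carried control Kac within 3 kb of a TSS. In 65 of the 126 an SB Kac peak was called elsewhere at a promoter of the gene. Among the 58 coding genes it was 45, which leaves 13 without any. Of the lncRNA genes, 13 had one and 33 did not. Over all coding genes, 15331 had control Kac and 15155 had SB Kac at a promoter. How many genes with control Kac also had SB Kac was not counted, for coding or for lncRNA genes. These counts therefore describe the genes with a member and do not set them apart from others.

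The 7 members over the canonical start of a coding gene were at FANCF, ZNF441, ZNF419, ZSCAN18, RNF216, EDF1 and the shared promoter of TOM1L2 and DRC3. At FANCF, a subunit of the Fanconi anaemia DNA repair complex, the peak of 631 bp (chr11:22625619-22626249) had a Kac fold of 2.74 (percentile 25.6) and Kbz at percentile 62.0, and SB Kac was 76436 bp away. At ZSCAN18 (chr19:58097879-58099009) the Kac fold was 3.66 (percentile 70.6), Kbz stood at percentile 29.5, and SB Kac was 51251 bp away. At ZNF441 (chr19:11766717-11767174) Kbz covered 98.5% of the peak, and at ZNF419 (chr19:57487116-57488002) 82.2%. RNF216 (chr7:5781424-5782051), which encodes a ubiquitin ligase, had 91.1% of its peak under Kbz.

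In FANCF, ZNF441, ZNF419, ZSCAN18 and RNF216 the start itself was under Kbz. At EDF1 (chr9:136865106-136867783) it was 404 bp from Kbz, which covered 292 bp of a peak of 2678 bp. At TOM1L2 and DRC3 (chr17:17971181-17973061) the starts were 555 and 93 bp from a Kbz peak at percentile 4.42. Of these genes, TOM1L2 and DRC3 had an SB Kac peak elsewhere at a promoter, and the others had none.

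Apart from FANCF, ZNF441, ZNF419, ZSCAN18, RNF216 and EDF1, the coding genes with no SB Kac peak at any promoter were GAS2, which shares the FANCF region, ENSG00000268107, which overlaps ZNF419, and KCNE3, NLGN3, PCK1, SCN3A and SMIM47. The last 5 were named after their values were seen. PCK1 encodes the cytosolic enzyme that commits carbon to gluconeogenesis. Its member lay 339 bp from a TSS (chr20:57559800-57560741), with a Kac fold of 2.78 (percentile 28.5) and Kbz at percentile 12.2 over 360 bp. At NLGN3, a synaptic adhesion protein, the member (chrX:71146158-71147150) had a Kac fold of 3.25 (percentile 56.4), and Kbz at percentile 3.67 covered 83.4% of it. At SCN3A, a sodium channel subunit, the member of 348 bp had a Kac fold of 3.49 (percentile 65.6), and SB Kac was 88851 bp away.

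In contrast, ACACB, which encodes an acetyl-CoA carboxylase, had a member at one promoter and an SB Kac peak at a promoter as well. It too was named after its values were seen. The peak of 300 bp had a Kac fold of 2.86 (percentile 34.5) and shared 171 bp with Kbz.

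Of the pathway lists, only glycolysis held a gene with a member, 1 of 16: ENO1, an enolase (chr1:8870614-8871546). Its Kac fold was 2.84 (percentile 33.3), its Kbz stood at percentile 42.1, and ENO1 had an SB Kac peak at a promoter. The counts were 0 of 16 immediate early genes, 0 of 12 genes of the stress and amino acid response, 0 of 14 of cholesterol synthesis and uptake, 0 of 18 histone deacetylases and sirtuins, 0 of 10 histone acetyltransferases and 0 of the 4 genes followed up in the study. KLF2 was the one gene of these lists that lacked control Kac at its promoters. At 0.459% over all genes, lists of this size hold few members or none.

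Members were spread over every chromosome analysed. Of control Kac peaks with Kbz, the share that were members ran from 0.571% (0.222 to 1.46) on chromosome 15 to 2.33% (1.36 to 3.94) on chromosome 22. The largest number was 30 on chromosome 1, followed by 26 each on chromosomes 17 and 19. Only 4 members had another member within 10 kb.

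Which peaks qualified depended on the threshold. When all 3 lists were restricted to a −log10 q of at least 5, 264 peaks met the same rule, but only 5 of them were among the 309, and 48.1% (42.1 to 54.1) were at promoters. With a cutoff of 2 in place of 5, which is the stated FDR of 0.01, 276 met it. Of these 178 were among the 309, which is 64.5% of the 276 and 57.6% of the 309.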

How the data were processed

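ChIP-seq was done on cells labelled HepG2 with and without SB, 1 library per group. According to the study and the submitters' processing notes, chromatin was digested with micrococcal nuclease, single reads of 50 bp were aligned to hg38 with Bowtie2 2.2.6, uniquely mapped reads were kept, PCR duplicates were removed with SAMtools 0.1.19 and peaks were called with MACS2 2.1.1 at an FDR of 0.01. The broad cutoff and the background track are not given in the sources used here. The lowest −log10 q in the control Kac list was 1.31, so the list reaches beyond the stated FDR. Broad calling joins enriched stretches into 1 peak and averages the values over it.

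Per peak, the authors deposited a display score, which was not used. The deposited fold, a linear ratio over background, served only for ranks within a list. Of the deposited significance values, −log10 q served as a threshold and −log10 p was not used. Lists were called separately, so folds were not compared between them.

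Overlaps, distances and positions were computed with Python 3.11.15, numpy 2.4.6, pandas 2.3.3, scipy 1.17.1 and numba 0.67.0, and drawn with matplotlib 3.10.9. The interval code was tested on simulated data (0 of 2000 values wrong), and bedtools 2.31.1 gave the same 309 members. Genes came from GENCODE 44. Promoters (3 kb around any TSS) went before exons, introns and intergenic sequence. The reference is not soft-masked, so the planned masked share was replaced by words of 50 bp found more than once in the reference. Shares have Wilson 95% intervals. Named members were the 10 highest by Kac fold, the 10 highest by Kbz fold, the 5 longest and those over a canonical coding TSS. A member is named by the gene whose promoter it overlaps, or by the nearest coding gene. The members and lists were chosen with earlier results of these data known.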

Additional observations from a re-analysis of the deposited data

How the results depend on the processing

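The 5 measures of the members (number, promoter share, share within 1 kb of SB Kac, median length and median share under Kbz) were recomputed 42 times in all, and 26 values stayed within 1.5 times the number or within the 95% interval of the reported value. Merging peaks within 1 kb or using all sequences changed none of them. No member had another control Kac peak within 1 kb, so merging that list could not alter the members. The unchanged values of the merging are still counted among the 26. So are the numbers of members with a −log10 q of at least 5 or 2 in all lists, 264 and 276. Only 5 and 178 of those peaks were among the reported members, so a like number does not mean the same peaks. With a −log10 q of at least 5 in control Kac and Kbz only, 5 members were left, with 0% at promoters, 0% within 1 kb of SB Kac and 73.1% under Kbz. With that threshold in all lists, the promoter share was 48.1%, the share within 1 kb 0%, the median length 1579 bp and the share under Kbz 49.2%. With a cutoff of 2 instead, the share within 1 kb was 1.81%. When Kbz had to cover at least 50% of the peak, 178 members were left, with 4.49% within 1 kb, a median length of 599.5 bp and 78.8% under Kbz, which this rule sets in part. The promoter share was 19.1% with promoters of 1 kb and 17.2% with promoters of coding genes. Without Kbz peaks that touch SB Kac, a choice made after seeing the data, 3.07% were within 1 kb and 293 members were left. Apart from this construction the causes were not tested. No paired analysis was possible because no result came from a test, and with 1 library per group none could be left out. A peak not called is not a mark that is absent: weak Kac under the threshold cannot be told apart from no Kac, nor lower acetylation from a shallower SB library.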

Other observations

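The reverse set, SB Kac peaks with Kbz and no control Kac peak, numbered 344, and 47.1% (41.9 to 52.4) of them were at promoters, against 33.7% of the 309 members. The sets come from different lists with unknown depths, so no test was made. Of the 348 Kbz peaks that touched control Kac but not SB Kac, 294 touched a member. The others lay in control Kac peaks that met SB Kac at another place along their length.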
